A study of Homo sapiens with 12 samples.

Results

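The proteins of the cytosolic ribosome are encoded by a large set of genes whose mRNAs are among the most abundant of a cell. The genes described here are the 88 entries, of 19824 kept from the deposited table, whose symbol starts with RPL (large subunit) or RPS (small subunit) and a digit, plus RPLP0, RPLP1, RPLP2 and RPSA. The S6 kinases, the Y-linked RPS4Y genes, RPS19BP1 and pseudogene symbols were left out. Of the 88 entries, 77 are core genes, 46 of the large and 31 of the small subunit. Another 8 are paralogs, second copies of a core gene such as RPL22L1, and 3 are readthrough symbols that join a ribosomal protein gene to its neighbour. The readthrough symbols are RPL17-C18orf32, RPL36A-HNRNPH2 and RPS10-NUDT3.

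RNA was sequenced from the human glioblastoma lines U87 and U373, both labelled wild type and grown in high-glucose DMEM with serum. Each line received 1 U/ml BCT-100, a pegylated arginase I that removes arginine by splitting it into ornithine and urea, or phosphate-buffered saline (PBS) as the control. RNA was taken after 72 h, and the groups U87 BCT-100, U87 PBS, U373 BCT-100 and U373 PBS had 3 libraries each. The labels do not say whether the libraries of a group came from separate cultures, and a p-value here speaks only of the scatter among these libraries, part or all of which may be technical.

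As background, ribosomal protein mRNAs belong to the TOP mRNAs, which begin with a C followed by a run of pyrimidines and whose translation is controlled by mTORC1, a kinase complex that responds to amino acids including arginine. Cells keep the proteins in near-equal numbers, partly by degrading those not built into a ribosome. Free RPL5 and RPL11, bound to 5S rRNA, bind and inhibit the ubiquitin ligase MDM2. The measurements below are of mRNA alone, and neither translation nor protein was measured.

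The deposited values are estimated read counts divided by 1 factor per library, here called scaled read counts, and the libraries hold 18.89 to 25.92 M recovered reads. Of 10 glial and neural stem markers 9 were testable. After BCT-100, 1 was higher and 6 lower in U87, beside 33.6% and 35.7% of all tested rows. In U373, 1 was higher and 8 lower, beside 35.6% and 35.8%. A gene could be testable through 1 line alone. Among the 6, GFAP and FABP7 (0 in U87 BCT-100, 1.99 in U87 PBS) were near 0 in U87 and testable through U373. OLIG2, a transcription factor of oligodendrocyte lineage, was the higher one in both lines. It averaged 108.4 ± 22.1 in U87 BCT-100 and 20.6 ± 2.6 in U87 PBS. In U373 it averaged 9.8 ± 3.68 after BCT-100 and 0 in PBS, near the floor and testable only through U87. GFAP, the astrocyte filament gene, averaged 1.37 ± 0.699 in U87 BCT-100 and 3.58 ± 0.364 in U87 PBS libraries, near 0, and 10041 ± 1830 in U373 BCT-100 and 52216 ± 1590 in U373 PBS libraries (SD, n = 3 each). VIM, the mesenchymal and glial filament vimentin, averaged 70059 ± 922 in U87 BCT-100 and 177117 ± 1980 in U87 PBS libraries, and 41779 ± 887 in U373 BCT-100 and 166871 ± 3900 in U373 PBS libraries. Of 6 leukocyte markers CD14 had the highest group mean, 70.2 in U373 BCT-100 libraries, and PTPRC and CD3E stayed at or near 0. Epithelial markers reached at most 18.2 (EPCAM, U87 PBS) and endothelial markers at most 56.5 (CDH5, U373 PBS).

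The ribosomal protein genes together held a larger share of the library after BCT-100 in both lines. Their summed values made up 4.43%, 4.54% and 4.31% of the U87 BCT-100 libraries, against 3.98%, 4.17% and 4% of the U87 PBS libraries. In U373 they made up 4.59%, 4.77% and 4.61% of the BCT-100 libraries, against 3.59%, 3.67% and 3.65% of the PBS libraries. The groups did not overlap in either line. The means were 4.42% ± 0.11 in U87 BCT-100 and 4.05% ± 0.1 in U87 PBS, and 4.66% ± 0.1 in U373 BCT-100 and 3.63% ± 0.041 in U373 PBS (SD, n = 3 each). U87 PBS lay above U373 PBS, whereas U373 BCT-100 had a higher mean than U87 BCT-100.

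Both subunits took part. Large subunit genes held 2.87% in U87 BCT-100 and 2.6% in U87 PBS, and 2.91% in U373 BCT-100 and 2.26% in U373 PBS. For the small subunit the means were 1.55% in U87 BCT-100 and 1.45% in U87 PBS, and 1.75% in U373 BCT-100 and 1.37% in U373 PBS. These are shares of a fixed total, so the amount of ribosomal protein mRNA per cell was not measured. Mitochondrially encoded mRNA moved the other way, at 3.66% ± 0.059 in U87 BCT-100 and 5.92% ± 0.124 in U87 PBS, and at 3.38% ± 0.074 in U373 BCT-100 and 4.31% ± 0.05 in U373 PBS. With those genes taken out of the total, the ribosomal protein share was 4.59% in U87 BCT-100 and 4.31% in U87 PBS, and 4.82% in U373 BCT-100 and 3.8% in U373 PBS.

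**Figure D1:**
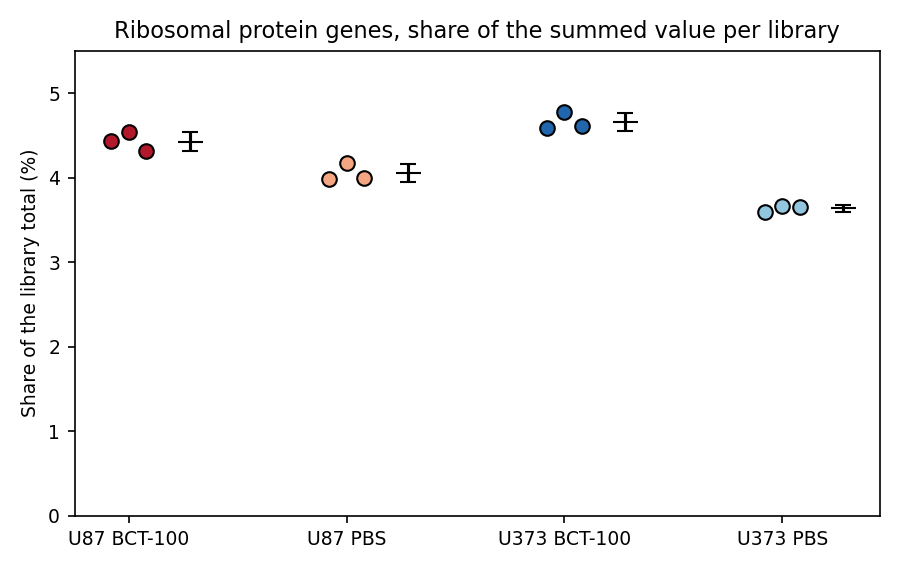
Summed scaled read counts of the 88 ribosomal protein genes as a percentage of each library's total, by group. Points are libraries, and the bars give the mean ± SD of 3. In each line all BCT-100 libraries lie above all PBS libraries, with means of 4.66% against 3.63% in U373 and 4.42% against 4.05% in U87.

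Gene by gene, 86 of the 88 entries had values high enough to test (at least 10 in at least 3 libraries). The other 2 are paralogs known for expression in muscle and testis, RPL3L and RPL10L. RPL3L was at 0 in all U87 libraries and at 0.931 and 1.84 in a single U373 BCT-100 and a single U373 PBS library, and RPL10L was at 0 in every library. A gene was called when its adjusted p was under 0.05 in a limma fit over all 13628 testable rows with Benjamini-Hochberg adjustment. Changes are given as log2 of BCT-100 over PBS, on the log2(value + 1) scale, with their standard error (SE).

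In U87, 52 of the 86 tested genes rose, 22 fell and 12 did not pass the test. These are 60.5% and 25.6% of the genes, beside 33.6% called higher and 35.7% called lower among all 13628 rows (69.3% called either way). Their median change was 0.19, beside -0.01 over all rows. The changes were small: 6 genes rose and 3 fell by at least 1.5-fold, beside 15.4% and 17.7% of all rows.

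In U373, 52 of the 86 also rose, 17 fell and 17 did not pass the test, which is 60.5% and 19.8% beside 35.6% and 35.8% of all rows (71.4% either way). The median change was 0.36, beside 0 over all rows. Here 28 genes rose and 4 fell by at least 1.5-fold, beside 17.3% and 19.8% of all rows. Large and small subunit genes had similar medians, at of 0.22 and 0.18 in U87 and 0.35 and 0.36 in U373.

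The direction of a gene was mostly shared by the lines. Of the 86, 46 rose in both, beside 22.3% of all rows, and 14 fell in both, beside 23.1% of all rows. Another 3 fell in U87 and rose in U373 (5.03% of all rows), 0 rose in U87 and fell in U373 (4.5% of all rows), and 6 passed in neither (14.2% of all rows). Across the 77 core genes the changes in the 2 lines, which share no library, had a Pearson r of 0.85 and a Spearman rho of 0.84. Over all 86 tested genes, which include the paralogs and readthrough symbols, they were 0.6 and 0.77. Over 5103 rows with a mean of at least 1000 r was 0.67 and rho 0.66. These correlations are across genes, which are not independent replicates, and describe these libraries. The SD of the change over the core genes was 0.37 in U87 and 0.46 in U373. Over the 5103 rows with a mean of at least 1000 it was 0.73 in U87 and 0.75 in U373. Over all rows, which include many of lower counts, it was 0.91 in each line.

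**Figure D2:**
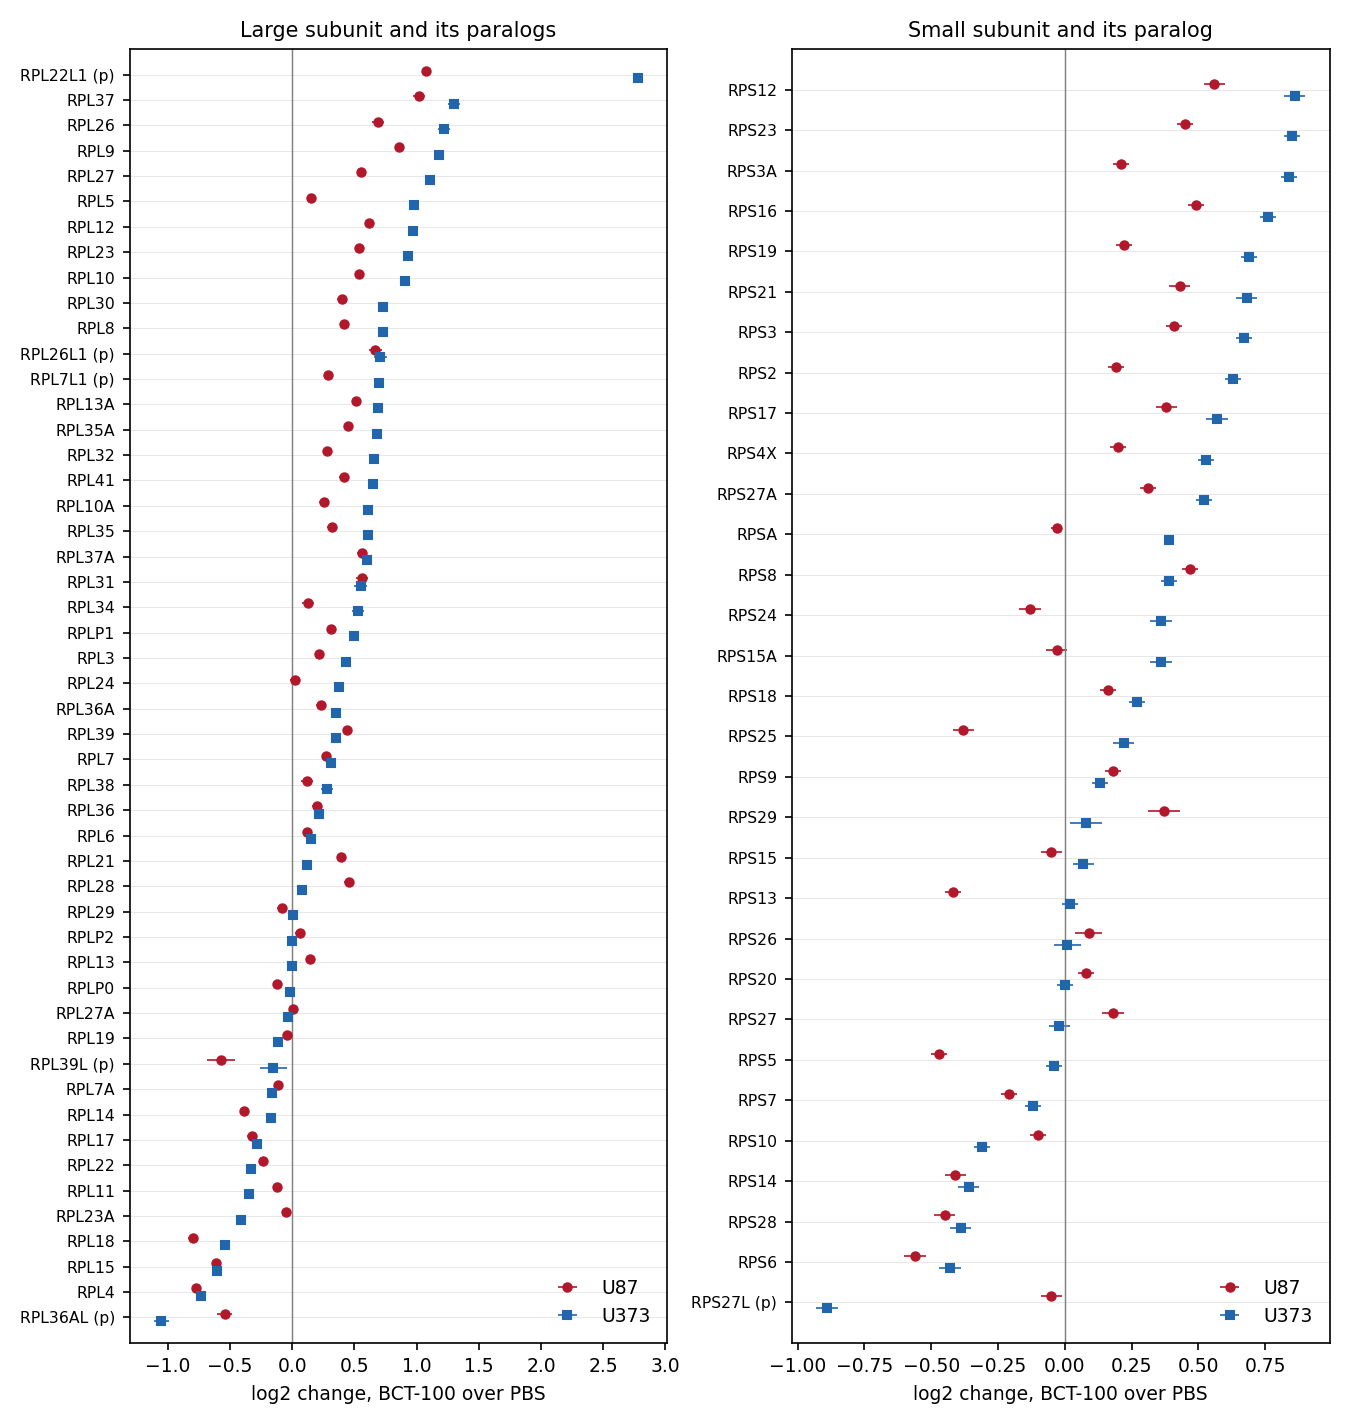
Change of the tested core genes and paralogs (marked p; genes not reported here are left out) after BCT-100, as log2 of BCT-100 over PBS with the SE of the fit, for U87 (circles) and U373 (squares), ordered by the U373 change. Most genes lie right of 0, and RPL22L1 stands alone at 2.78 in U373, while RPL36AL, RPL4, RPL15, RPL18 and RPS6 lie left of 0 in both lines.

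The largest rise of a core gene was that of RPL37, a zinc-binding large subunit protein. It had 16354, 17796 and 16071 scaled read counts in U87 BCT-100 libraries, against 7899, 8946 and 8012 in U87 PBS libraries, and 14390, 15536 and 15080 in U373 BCT-100 libraries, against 5867, 6153 and 6247 in U373 PBS libraries. Every treated library lay well above every control library. The change was 1.02 (SE 0.05) in U87 and 1.3 (SE 0.05) in U373, and limma gave adjusted p = 5.50e-11 and 2.29e-12.

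RPL9, a protein of the large subunit, had 22717, 22925 and 22096 in U87 BCT-100, against 12121, 12967 and 12344 in U87 PBS, and 19357, 20920 and 20412 in U373 BCT-100, against 8889, 8856 and 8969 in U373 PBS. Groups were far apart in both lines, and the changes were 0.86 and 1.18 (SE 0.03 each). RPL26, which lies near the exit of the peptide tunnel, had 19932, 20823 and 19228 in U87 BCT-100, against 11864, 13416 and 11923 in U87 PBS, and 26593, 29255 and 28675 in U373 BCT-100, against 11803, 12209 and 12339 in U373 PBS. The PBS groups of the lines overlapped and the BCT-100 groups did not, with changes of 0.69 in U87 and 1.22 in U373 (SE 0.05 each).

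RPL12, at the base of the stalk where elongation factors bind, rose by 0.62 in U87 and 0.97 in U373 (SE 0.03 each). RPL27 had 12307, 12347 and 11608 in U87 BCT-100, against 8154, 8466 and 8129 in U87 PBS, and 18036, 19803 and 18319 in U373 BCT-100, against 8432, 8687 and 8865 in U373 PBS. Its PBS groups were close, and its changes were 0.55 in U87 and 1.11 in U373 (SE 0.03 each). RPL10, the protein added to the large subunit late in the cytoplasm in yeast, rose by 0.54 and 0.91, and RPL3, near the peptidyl transferase centre, by 0.22 and 0.43 (U87 and U373, SE 0.02 each). In the small subunit, RPS19, the gene most often mutated in Diamond-Blackfan anaemia, rose by 0.22 in U87 and 0.69 in U373 (SE 0.03 each).

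A smaller group of core genes fell in both lines while the majority rose. RPL4, whose extension lines the peptide tunnel, had 18123, 18464 and 17984 in U87 BCT-100, against 30471, 31745 and 30617 in U87 PBS, and 15334, 16371 and 16089 in U373 BCT-100, against 26069, 26140 and 26770 in U373 PBS. All treated libraries lay below all control libraries of both lines. The fall was nearly equal, at -0.77 in U87 and -0.73 in U373 (SE 0.03 each; limma adjusted p = 8.77e-16 and 1.89e-15). RPL15, another large subunit gene, had 12418, 12097 and 12656 in U87 BCT-100, against 18467, 19404 and 18782 in U87 PBS, and 11315, 11806 and 11824 in U373 BCT-100, against 17557, 17881 and 17596 in U373 PBS. It too separated the treatments in both lines, with changes of -0.61 and -0.6 (SE 0.03 each).

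RPL18 had 2628, 2765 and 2570 in U87 BCT-100, against 4482, 4861 and 4540 in U87 PBS, and 4444, 4649 and 4532 in U373 BCT-100, against 6505, 6679 and 6595 in U373 PBS. Groups did not overlap within a line, and the changes were -0.8 in U87 and -0.54 in U373 (SE 0.04 each). RPS6, the small subunit protein phosphorylated by the S6 kinases downstream of mTORC1, had 7845, 7771 and 7321 in U87 BCT-100, against 10765, 11942 and 11077 in U87 PBS, and 13024, 13756 and 13399 in U373 BCT-100, against 17822, 17986 and 18338 in U373 PBS. It was lower after treatment in both lines, by -0.56 and -0.43 (SE 0.04 each). The other small subunit genes that fell in both lines were RPS7, RPS10, RPS14 and RPS28, with changes between -0.1 (RPS10, U87) and -0.45 (RPS28, U87). Without U87 BCT-100 replicate 3 or U87 PBS replicate 2 the fall of RPS10 in U87 did not pass (-0.08 and -0.09). RPL17, at the tunnel exit, fell by 0.32 in U87 and by 0.28 in U373.

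For 49 of the 88 entries no library held a whole number of reads once the scaling was undone, as happens when reads are divided between similar sequences, and such values are less certain. RPL4, RPL9, RPL15 and RPL26 are among them, with 6, 17, 9 and 14 pseudogenes of each in GENCODE. So are RPL12, RPS3A, RPSA and RPL23A, with 50, 38, 74 and 91. RPL5, with 35 pseudogenes, and RPS6, with 13, held whole reads in only 1 of 12 libraries each. For 10 core genes every library held whole reads. Of those 10, 9 rose and 1 fell in U87 with a median of 0.43, beside 33.6% higher and 35.7% lower of all rows. In U373, 8 rose and 1 fell with a median of 0.68, beside 35.6% and 35.8% of all rows. Of the 45 core genes without any whole library, 26 rose and 12 fell in U87 with a median of 0.14. For the same 45 in U373, 28 rose and 9 fell with a median of 0.31. RPL27 and RPL11 have whole reads in all 12 libraries. Of the core genes 28 carry a snoRNA gene within their bounds, and these had medians of 0.21 in U87 and 0.41 in U373, beside 0.18 and 0.28 for the 49 that do not.

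The start of the mRNA is shown next because the TOP sequence is the feature by which these mRNAs are known. RefSeq promoter sequences on GRCh38.p14 were found for 70 of the 88 entries, and for 62 of the 77 core genes. A C at the annotated start followed by at least 4 more C or T was present in 46 of those 62 core genes (74.2%), beside 1404 of 27305 genes in all (5.14%), a gene being counted when any of its annotated starts matched. Each line below gives the 15 bases before and the 15 bases from the start of the transcript, 5′ to 3′ on the gene's own strand, and capitals mark the unbroken run of C and T from the start. RPL26, RPL12 and RPS3A rose in both lines, and RPL18 and RPS6 fell in both. RPL9 and RPL27 rose, and RPL4 fell, without a TOP sequence at the annotated start.
RPL26, chr17:8383179-8383208, minus strand: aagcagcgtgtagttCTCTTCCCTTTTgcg
RPL12, chr9:127451392-127451421, minus strand: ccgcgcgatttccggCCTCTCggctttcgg
RPS3A, chr4:151099613-151099642, plus strand: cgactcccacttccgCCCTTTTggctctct
RPL18, chr19:48619164-48619193, minus strand: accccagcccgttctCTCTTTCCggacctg
RPS6, chr9:19380222-19380251, minus strand: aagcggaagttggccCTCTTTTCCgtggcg
RPL9, chr4:39458908-39458937, minus strand: gtacgtaatgacgacagacgttctttcttt
RPL27, chr17:42998404-42998433, plus strand: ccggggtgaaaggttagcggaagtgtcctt
RPL4, chr15:66504841-66504870, minus strand: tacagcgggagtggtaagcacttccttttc

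The start used in these cells was not measured. The windows of RPL9, RPL27 and RPL4 hold a run of C and T that begins after the annotated start and was not counted. The same holds for other core genes counted as without the sequence, RPS26 and RPS28 among them. The split below therefore depends on where the start is annotated. Core genes with the TOP sequence at an annotated start had a median change of 0.19 in U87 and 0.35 in U373 (46 genes). Those without it there had 0.1 in U87 and 0.08 in U373 (16 genes). The ranges overlapped almost fully: with the sequence they ran from -0.8 to 0.69 in U87 and from -0.54 to 1.22 in U373, and without it from -0.77 to 0.86 in U87 and from -0.73 to 1.18 in U373.

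Promoters, taken from 250 bases before to 50 bases after the start and read on both strands, were also searched for TGATGNAA, a core of the element bound by ATF4, and for CACGTG, the palindromic E-box. The first was found in 2 of the 62 core genes (3.23%, RPL31 and RPS23), beside 4.46% of all genes, and the second in 4 of 62 (6.45%), beside 8.77% of all genes. A match describes the letters of this window alone.

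Other genes of the translation apparatus were set beside the ribosomal proteins. Of 22 other TOP mRNAs, 10 rose, 9 fell and 3 did not pass in U87, with a median of 0.08. These are 45.5% higher and 40.9% lower, beside 33.6% and 35.7% of all rows. In U373, 16 rose, 5 fell and 1 did not pass, with a median of 0.43. These are 72.7% and 22.7%, beside 35.6% and 35.8% of all rows. The elongation factor gene EEF1A1 rose by 0.26 in U87 and 0.5 in U373, and NPM1, the nucleolar histone chaperone, by 0.36 and 1.2, while EEF2, which drives translocation, fell by 0.78 and by 0.52 (SE 0.02 to 0.03). HNRNPA1 of the splicing machinery fell by 0.98 and by 1.44 (SE 0.03 each). Among the ribosomal proteins that lie outside the symbol rule, FAU fell by 0.36 in U87 and stood at -0.06 in U373, and RACK1 (listed as GNB2L1) stood at 0.02 in U87 and rose by 0.45 in U373.

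The 77 mitochondrial ribosomal protein genes gave other counts. In U87, 19 rose and 35 fell (24.7% and 45.5%, beside 33.6% and 35.7% of all rows) with a median of -0.09, and in U373, 35 rose and 25 fell (45.5% and 32.5%, beside 35.6% and 35.8% of all rows) with a median of 0.03. Their median difference of responses, U87 minus U373, was -0.18 with 45.5% lower, beside -0.19 and 53.5% for the cytosolic genes. Also counted were 11 dedicated chaperones and assembly partners of ribosomal proteins. In U87, 2 rose and 5 fell (18.2% and 45.5%, beside 33.6% and 35.7% of all rows). In U373, 7 rose and 3 fell (63.6% and 27.3%, beside 35.6% and 35.8% of all rows). NAP1L1, a histone chaperone whose yeast counterpart also binds RPS6, rose by 0.61 in U87 and 0.58 in U373 (SE 0.04 each), and AAMP, whose yeast counterpart is a chaperone of RPL10, by 0.38 and 0.73 (SE 0.05 each). HEATR3, which serves RPL5, fell by 0.76 in U87 and by 0.67 in U373, and TSR2, which serves RPS26, fell by 0.69 and by 0.53 (SE 0.06 each). GRWD1, which serves RPL3, stood at -0.06 in U87 and rose by 0.55 in U373 (SE 0.05 each).

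Of the 3 stalk proteins, 1 rose and 1 fell in U87, beside 33.6% higher and 35.7% lower of all rows. In U373, 1 rose and 0 fell, beside 35.6% and 35.8% of all rows. RPLP1, an acidic stalk protein, rose by 0.31 in U87 and 0.5 in U373 (SE 0.03 each). RPLP2, its partner, had 4818, 4972 and 4503 in U87 BCT-100, against 4466, 4744 and 4492 in U87 PBS, and 3215, 3248 and 3204 in U373 BCT-100, against 3174, 3280 and 3198 in U373 PBS. The groups overlapped in both lines, with changes of 0.06 and 0 (SE 0.04 each; limma adjusted p = 0.148 and 0.968). RPLP0, which anchors both and had the highest mean count of all 88 entries, fell by 0.12 in U87 and stood at -0.02 in U373 (SE 0.03 each). RPSA, also known as the laminin receptor, stood at -0.03 in U87 and rose by 0.39 in U373 (SE 0.02 each).

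Of the 5 proteins best known for binding MDM2, 3 rose and 2 fell in each line, beside 33.6% higher and 35.7% lower of all rows in U87 and 35.6% and 35.8% in U373. RPL5 had 7979, 8108 and 7860 in U87 BCT-100, against 7066, 7420 and 7038 in U87 PBS, and 20269, 21218 and 21201 in U373 BCT-100, against 10171, 10580 and 11123 in U373 PBS. Its groups lay far apart in U373 and close together, without overlap, in U87. The changes were 0.15 in U87 and 0.98 in U373 (SE 0.03 each). RPL11, its partner in the 5S particle, had 10881, 11245 and 10395 in U87 BCT-100, against 11405, 12109 and 11712 in U87 PBS, and 6715, 7258 and 6848 in U373 BCT-100, against 8830, 8916 and 8805 in U373 PBS. RPL11 was lower after treatment in both lines, opposite to RPL5, by -0.12 in U87 and -0.35 in U373 (SE 0.03 each). RPL23 rose by 0.54 in U87 and 0.93 in U373, and RPS7 fell by 0.21 in U87 and by 0.12 in U373 (SE 0.03 each). RPL26, the last of the 5, is given above.

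MDM2 and the cell cycle inhibitor gene CDKN1A were set beside them. MDM2 averaged 5100 ± 153 in U87 BCT-100 and 3446 ± 94 in U87 PBS, and 1127 ± 52.4 in U373 BCT-100 and 1176 ± 51.2 in U373 PBS (SD, n = 3 each). CDKN1A averaged 6715 ± 256 in U87 BCT-100 and 4172 ± 127 in U87 PBS, and 349.9 ± 12.9 in U373 BCT-100 and 524.5 ± 52.6 in U373 PBS. Both rose in U87, by 0.57 (SE 0.04) and 0.69 (SE 0.06), while in U373 MDM2 stood at -0.06 and CDKN1A fell by 0.58. The difference of the responses passed the test for both, at 0.63 for MDM2 and 1.26 for CDKN1A (limma adjusted p = 2.54e-08 and 6.29e-11). MDM4, a relative of MDM2, rose by 0.53 in U87 and 0.8 in U373 (SE 0.06 each).

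**Figure D3:**
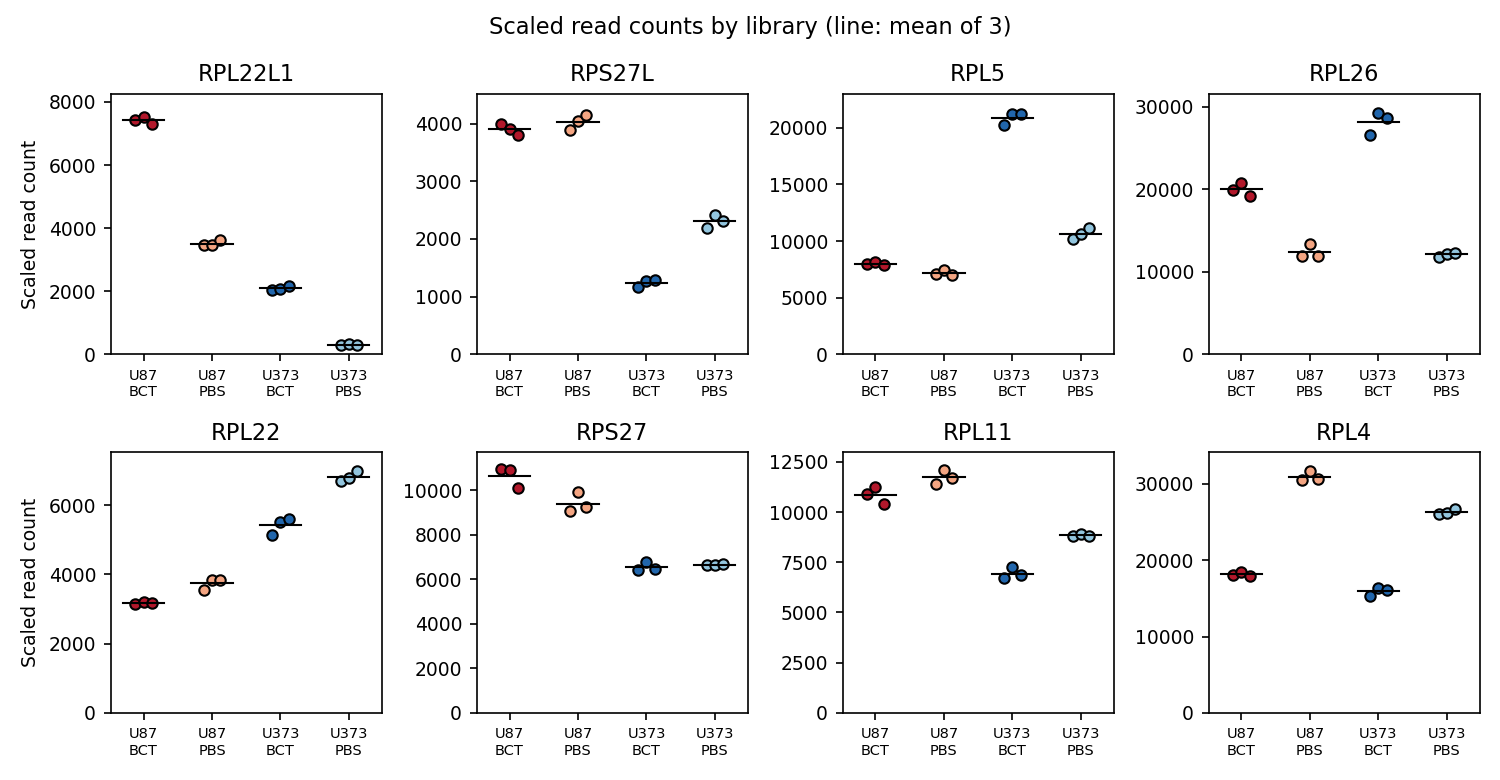
Scaled read counts of 8 genes in each of the 12 libraries, with BCT-100 left of PBS for each line. Points are libraries and the line is the mean of 3. RPL22L1 rises in both lines while RPL22 falls, RPL5 rises most in U373 while RPL11 falls, RPS27L falls in U373 and overlaps in U87, and RPL4 falls in both lines.

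RPL22L1 had the largest called rise of the 86 genes in both lines, and RPL36AL, also a paralog, the largest called fall in U373. RPL22L1, the second copy of RPL22, had 7444, 7514 and 7310 scaled read counts in U87 BCT-100, against 3457, 3458 and 3608 in U87 PBS, and 2044, 2065 and 2162 in U373 BCT-100, against 285.5, 319.5 and 309.1 in U373 PBS. It was 2.12-fold higher after treatment in U87 and 6.85-fold higher in U373, where its control level was low, with log2 changes of 1.08 and 2.78 (SE 0.04 each; limma adjusted p = 6.34e-15 and 1.57e-21). RPL22 itself had 3155, 3212 and 3185 in U87 BCT-100, against 3564, 3833 and 3851 in U87 PBS, and 5143, 5513 and 5618 in U373 BCT-100, against 6706, 6798 and 6992 in U373 PBS. The parent gene fell in both lines, by 0.23 and by 0.33. In mouse, Rpl22 protein is known to repress Rpl22l1.

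The log2 ratio of RPL22L1 to RPL22 was 1.24, 1.23 and 1.2 in U87 BCT-100, against -0.04, -0.15 and -0.09 in U87 PBS, and -1.33, -1.42 and -1.38 in U373 BCT-100, against -4.55, -4.41 and -4.5 in U373 PBS. The ratio, which within a pair does not depend on library scaling, rose by 1.32 (SE 0.032) in U87 and 3.11 (SE 0.048) in U373. Both lines had p = 0.1 in a two-sided exact permutation test, and no smaller p is possible with 3 libraries against 3. RPL22L1 has whole reads in all 12 libraries, but RPL22 has them in 0 and has 22 pseudogenes in GENCODE. RPS27, RPL26, RPL36A, RPL39 and RPL7, the parents in the ratios below, also have them in 0 libraries. Each of these ratios therefore rests on a less certain value. RPL22L1 is the only paralog of 6 with a promoter sequence whose annotated start carries the TOP sequence.
RPL22L1, chr3:170870181-170870210, minus strand: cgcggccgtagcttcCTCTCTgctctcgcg
RPL22, chr1:6199581-6199610, minus strand: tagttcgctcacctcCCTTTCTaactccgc

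RPS27L, the second copy of RPS27, had 3991, 3915 and 3799 in U87 BCT-100, against 3888, 4042 and 4158 in U87 PBS, and 1162, 1276 and 1283 in U373 BCT-100, against 2192, 2411 and 2309 in U373 PBS. Its groups overlapped in U87 and lay apart in U373, with changes of -0.05 and -0.89 (SE 0.04 each; limma adjusted p = 0.365 and 2.34e-13). RPS27 rose by 0.18 in U87 and stood at -0.02 in U373 (SE 0.04 each). The log2 ratio of RPS27L to RPS27 changed by -0.23 (SE 0.045) in U87 and -0.87 (SE 0.055) in U373, with groups apart in both lines.
RPS27L, chr15:63157463-63157492, minus strand: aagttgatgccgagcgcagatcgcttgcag
RPS27, chr1:153990747-153990776, plus strand: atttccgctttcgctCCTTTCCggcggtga

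In the windows just printed RPS27 begins with a pyrimidine run and RPS27L does not. RPL36AL, an intronless copy of RPL36A, had 938.5, 870.4 and 876.1 in U87 BCT-100, against 1254, 1344 and 1313 in U87 PBS, and 639.1, 588.7 and 699.8 in U373 BCT-100, against 1251, 1333 and 1415 in U373 PBS. It was lower after treatment in both lines, by -0.54 and -1.05 (SE 0.06 each), while RPL36A rose by 0.23 and 0.35 (SE 0.04 each). Their log2 ratio changed by -0.77 (SE 0.05) in U87 and -1.4 (SE 0.089) in U373.

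RPL39L, a copy of RPL39 known from testis, had 153.3, 187.7 and 200.1 in U87 BCT-100, against 261.1, 272.9 and 268.0 in U87 PBS, and 155.8, 167.4 and 177.8 in U373 BCT-100, against 176.9, 194.3 and 186.4 in U373 PBS. It was the lowest paralog tested and fell by 0.57 in U87, whereas in U373 the groups overlapped at -0.15 (SE 0.11 each). RPL39 rose by 0.44 and 0.35 (SE 0.03 each), and the log2 ratio of the pair changed by -1.02 (SE 0.117) in U87 and -0.5 (SE 0.05) in U373.

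The other tested copies rose in both lines, as did their parents. RPL26L1 rose by 0.67 in U87 and 0.71 in U373 (SE 0.05 each), and its ratio to RPL26 overlapped between treatments in U87 (change of -0.02, SE 0.075, exact permutation p = 0.9) and fell by 0.51 (SE 0.022) in U373. RPL7L1, related to a yeast factor of large subunit assembly, rose by 0.29 in U87 and 0.7 in U373, beside 0.27 and 0.31 for RPL7 (SE 0.03 each). Its ratio to RPL7 overlapped in U87 (change of 0.03, SE 0.053, exact permutation p = 0.7) and rose by 0.39 (SE 0.041) in U373. The groups did not overlap for any other ratio named above, each with an exact two-sided permutation p = 0.1.

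**Figure D4:**
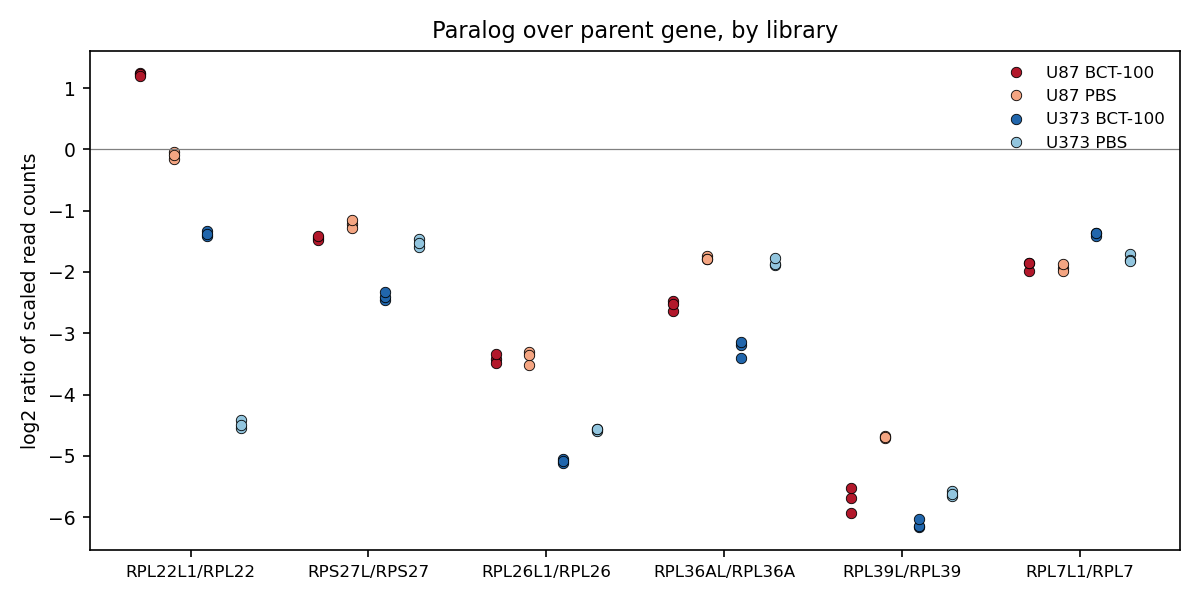
Log2 ratio of each paralog's scaled read count to that of its parent gene, 1 point per library, with U87 BCT-100, U87 PBS, U373 BCT-100 and U373 PBS from left to right in each pair. Ratios are not corrected for transcript length, so heights compare groups within a pair and not pairs with each other. RPL22L1/RPL22 is higher after BCT-100 in both lines, RPL36AL/RPL36A, RPL39L/RPL39 and RPS27L/RPS27 are lower in both, and RPL26L1/RPL26 and RPL7L1/RPL7 overlap between treatments in U87.

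The 3 readthrough symbols were low. RPL36A-HNRNPH2 ranged from 0 to 68.5 over all libraries, and its changes carried an SE of 1.74. RPL17-C18orf32 rose by 0.54 in U87 and stood at 0.17 in U373 (SE 0.15 each), and RPS10-NUDT3 passed in neither line. Such symbols share exons with RPL36A, RPL17 and RPS10, so their reads cannot be assigned with certainty.

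Whether the lines responded by different amounts was tested as the difference of the responses, U87 minus U373. The difference was positive for 10 of the 86 genes and negative for 46, and 30 did not pass. These are 11.6% and 53.5%, beside 26.1% and 30.7% of all rows (56.8% either way). Signed changes are subtracted, so a gene that fell less in U87 has a positive difference. The median difference was -0.19, beside -0.04 over all rows. Most differences were small, with 1 higher and 4 lower by at least 1.5-fold, beside 13.4% and 13.9% of all rows.

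Among genes with a negative difference, RPL22L1 differed most, at -1.69 (SE 0.06, limma adjusted p = 7.94e-15). It was followed by RPL5 at -0.82 (SE 0.05, limma adjusted p = 7.41e-12). RPS3A, of the small subunit, had 23655, 24199 and 23454 in U87 BCT-100, against 20358, 20729 and 20706 in U87 PBS, and 19329, 20259 and 20254 in U373 BCT-100, against 10861, 11324 and 11325 in U373 PBS. It rose by 0.21 in U87 and 0.84 in U373, a difference of -0.63 (SE 0.04). RPL27 differed by -0.56 (SE 0.05) and RPL26 by -0.53 (SE 0.07). On the other side, the difference was 0.85 (SE 0.06) for RPS27L and 0.51 (SE 0.09) for RPL36AL. RPS27L fell in U373 and did not pass in U87, and RPL36AL fell in both lines and further in U373. RPL28, which yeast lacks, rose by 0.46 in U87 and stood at 0.08 in U373, a difference of 0.38, and RPL23A, at the tunnel exit, stood at -0.05 in U87 and fell by 0.41 in U373, a difference of 0.36 (SE 0.05 each). RPS29 rose by 0.37 in U87 and stood at 0.08 in U373, a difference of 0.29 (SE 0.09), and RPL21 rose by 0.39 and 0.12, a difference of 0.28 (SE 0.05).

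Opposite called directions in the lines were found for RPS25 and RPS24, among others. RPS25, a small subunit protein needed for initiation at certain internal ribosome entry sites, had 3632, 3624 and 3410 in U87 BCT-100, against 4560, 4760 and 4518 in U87 PBS, and 7197, 7803 and 7735 in U373 BCT-100, against 6472, 6555 and 6488 in U373 PBS. The treated groups lay below the controls in U87 and above them in U373, by -0.38 and 0.22 (SE 0.04 each), a difference of -0.6 (SE 0.05, limma adjusted p = 3.09e-09). RPS24 changed by -0.13 in U87 and 0.36 in U373 (SE 0.04 each).

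**Figure D5:**
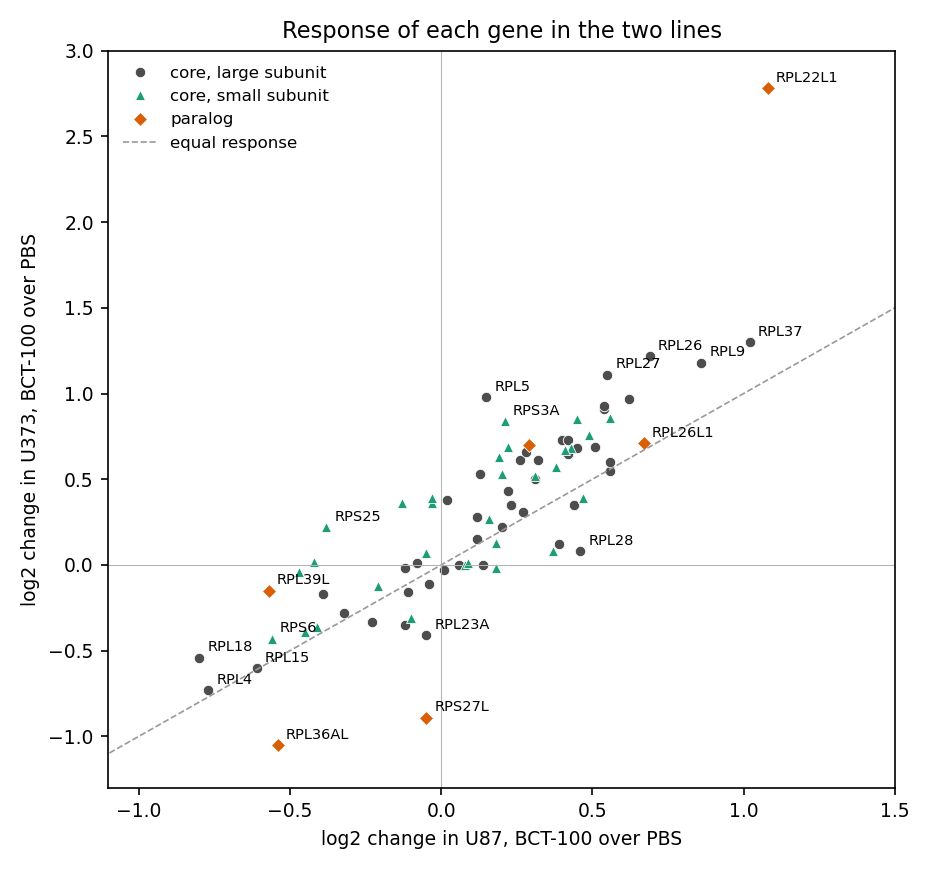
Log2 change after BCT-100 in U373 against that in U87 for the tested core genes and paralogs, without those not reported here. Symbols separate large subunit, small subunit and paralogs, and the dashed line marks equal change. Most rising genes lie above that line, with RPL22L1 at 1.08 and 2.78 and RPL5 at 0.15 and 0.98, and RPS27L and RPL36AL lie below it.

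The lines also differed before treatment. In PBS, 48 of the 86 genes were higher in U87 than in U373, 25 lower, and 13 did not pass, which is 55.8% and 29.1% beside 43.0% and 40.1% of all rows (83.1% either way). The median was 0.21 (U87 over U373), beside 0.03 over all rows, and 19 genes were higher and 7 lower by at least 1.5-fold, beside 27.0% and 25.6% of all rows. RPL22L1 led here as well, with an 11.49-fold higher value in U87 PBS than in U373 PBS (log2 3.52, SE 0.04, limma adjusted p = 1.37e-23), while RPL22 was lower in U87 by -0.87 (SE 0.04).

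RPL3 had 31089, 31671 and 31038 in U87 PBS, against 12950, 12927 and 12969 in U373 PBS, a difference of 1.27 (SE 0.02). RPL26L1 was higher in U87 PBS by 1.2, RPS26 by 1.14 and RPL34 by 1.02 (SE 0.05 each), and RPL17 by 0.93 (SE 0.04). RPS26, which lies at the exit of the mRNA channel, did not pass the test for treatment in either line, at 0.09 in U87 and 0.01 in U373 (SE 0.05 each; limma adjusted p = 0.0753 and 0.887). Besides RPL22, the genes lower in U87 PBS included RPS10-NUDT3 (-1.41, SE 0.29), RPS10 (-0.87, SE 0.03), RPL12 (-0.68, SE 0.03) and RPS6 (-0.68, SE 0.04). RPS10, at the entry of the mRNA channel, had 3688, 3800 and 3728 in U87 PBS, against 6951, 6831 and 6751 in U373 PBS. The lines did not overlap for RPL3 or RPS10.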

How the data were processed

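RNA of 12 libraries, 3 in each of 4 groups, was analysed from a single deposited table. Per the submitters' processing notes, STAR, RSEM and the build hg38 were used, with no versions, annotation or strand setting given. The authors deposited a signal per gene and library. Its values are estimated read counts divided by 1 factor per library: after undoing it, 85.5% to 86.9% of the values above 0 were whole within 0.001. Column totals ran from 22101094 to 23433112, and recovered depths from 18.89 to 25.92 M reads. With that many values not whole, no count model was used.

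Of 19844 rows, 20 repeats were dropped. limma 3.58.1 (R 4.3.3, trended robust prior) was fitted to log2(value + 1) of the 13628 rows with at least 10 in at least 3 libraries, with 4 group means over all 12 libraries (8 residual degrees of freedom) and Benjamini-Hochberg adjustment at 0.05 over all of them. A fold on this scale understates changes of low genes. The fit was tested on simulated data. Positions and snoRNAs are those of GENCODE 29 on GRCh38, in which all 88 entries were matched.

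The genes and lists were chosen with earlier results of these data known. Named genes are the 6 largest called rises and falls of each comparison with a mean of at least 50, the paralogs with their parents, stalk proteins, MDM2 binders, RPSA, RPS6 and RPS19. RPS14, RPS18, RPS20, RPS23, RPS24, RPS28, RPL29, RPL31 and RPL38 lie outside that rule and were named after their values were seen. A few genes that the rule or lists hold stay in the counts and medians and are not reported here by name. Groups follow the treatment label, since the protocol label gives PBS for every sample. Alternatives were other scalings, filters and pseudocounts, voom weights, a fit of each line alone, a replicate block, a fold threshold and leaving out each library. The labels give no batch.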

Additional observations from a re-analysis of the deposited data

Results flagged for a closer look

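A ribosomal protein gene named in the text is listed here when the difference of its responses, U87 minus U373, passed limma's test after Benjamini-Hochberg adjustment over all rows. This held for 33 genes, some of which were named because this difference was large, so their number says nothing about the set. Values are log2 differences, and the lines share no library.

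The difference was negative for 24 of them. Among the paralogs the difference was -1.69 for RPL22L1, -0.42 for RPL39L and -0.41 for RPL7L1. RPL22L1 rose in both lines (1.08 in U87, 2.78 in U373), RPL7L1 likewise (0.29 and 0.7), and RPL39L fell in U87 by 0.57 and stood at -0.15 in U373. Among large subunit genes it was -0.82 for RPL5, -0.56 for RPL27, -0.53 for RPL26, -0.4 for RPL34, -0.39 for RPL23, -0.37 for RPL10, -0.35 for RPL12, -0.33 for RPL9, -0.29 for RPL37 and -0.21 for RPL3, all of which rose in both lines. The U87 rise of RPL34 (0.13) did not pass under scaling to equal totals, with limma's voom weights, or without U87 BCT-100 replicate 2 or U87 PBS replicate 1 (0.08 to 0.11). It was -0.26 for RPL18, which fell in both. For the stalk it was -0.19 for RPLP1 and -0.1 for RPLP0. The call of RPL39L was lost without U87 BCT-100 replicate 1, U87 PBS replicate 2, U373 BCT-100 replicate 3 or U373 PBS replicate 1 (differences of -0.31 to -0.4). That of RPLP0 was lost without U87 BCT-100 replicate 1 or 3, U87 PBS replicate 2, U373 BCT-100 replicate 2 or U373 PBS replicate 3 (-0.08 to -0.1).

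Among small subunit genes the difference was -0.63 for RPS3A, -0.6 for RPS25, -0.5 for RPS24, -0.48 for RPS19, -0.42 for RPSA, -0.4 for RPS23, -0.13 for RPS6 and -0.1 for RPS18. RPS25 and RPS24 fell in U87 and rose in U373. The call of RPS6 was lost without U87 BCT-100 replicate 3, U87 PBS replicate 2, U373 BCT-100 replicate 2 or 3, or U373 PBS replicate 1 or 2 (-0.08 to -0.13). That of RPS18 was lost without U87 BCT-100 replicate 1 or 3, U87 PBS replicate 2, U373 BCT-100 replicate 2, or U373 PBS replicate 1 or 3 (-0.08 to -0.1).

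A positive difference was found for 9, some of which fell in both lines and further in U373. The difference was 0.85 for RPS27L, 0.51 for RPL36AL, 0.38 for RPL28, 0.36 for RPL23A, 0.29 for RPS29, 0.28 for RPL21, 0.24 for RPL11, 0.21 for RPS10 and 0.2 for RPS27. Groups of 3 are too small for a check of single deviating libraries.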

How the results depend on the processing

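No gene or summary changed sign as a call under any alternative run. Of 7736 values of single genes, 7470 stayed on the same side of the threshold, 172 lost the call and 94 gained it. Direction was compared only where a fit called the gene. Against a fold of 1.2 (limma's treat), the called genes numbered 27 higher and 12 lower in U87, 43 and 10 in U373, 2 and 17 for the difference, and 35 and 16 between lines in PBS. Scaling to equal totals, with or without the ribosomal protein genes, put the median change in U87 at 0.14, and RPS20, RPL34 and RPL38 lost their calls there. With voom weights 49 were higher and 28 lower in U87, 53 and 18 in U373, 10 and 51 for the difference and 48 and 26 between lines, and the U87 calls of RPS20, RPL34 and RPL38 were lost. With no low-value filter, a filter at 100, or a pseudocount of 0.5 or 5, these counts stayed within 1 of those reported, RPL29 losing its U87 call with no filter or a pseudocount of 0.5 and RPS6 its difference call with no filter. With each line fitted alone they were 53 and 22 in U87 and 54 and 17 in U373. Median-of-ratios scaling ended the U87 call of RPL29 and the difference calls of RPLP0, RPS6 and RPS18. The median of all rows moved by less than 0.1 under every scaling.

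Leaving out each library in turn gave 49 to 53 higher and 19 to 23 lower in U87, 52 to 54 higher and 17 to 17 lower in U373, 10 to 13 and 42 to 49 for the difference, and 47 to 49 and 23 to 27 between lines in PBS. Medians ran from 0.17 to 0.21 in U87, 0.33 to 0.39 in U373, -0.21 to -0.15 for the difference and 0.17 to 0.23 between lines. Shares ran from 4.37% to 4.48% (U87 BCT-100), 3.99% to 4.09% (U87 PBS), 4.6% to 4.69% (U373 BCT-100) and 3.62% to 3.66% (U373 PBS). The U87 rise of RPL34 did not pass without U87 BCT-100 replicate 2 (0.11) or U87 PBS replicate 1 (0.08). Without mitochondrially encoded genes the shares were 4.59% (U87 BCT-100), 4.31% (U87 PBS), 4.82% (U373 BCT-100) and 3.8% (U373 PBS), and core genes alone held 3.58% in U373 PBS.

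With the replicate block the called genes numbered 53 higher and 22 lower in U87, 55 and 17 in U373, 13 and 48 for the difference, and 50 and 26 between lines. The labels do not say what the numbers share. Over all tested rows, the correlation of deviations in 18 same-numbered pairs ran from -0.07 to 0.03. In every group, however, replicate 2 had the highest ribosomal protein share. It was 4.54% in U87 BCT-100, 4.17% in U87 PBS, 4.77% in U373 BCT-100 and 3.67% in U373 PBS. Whether same-numbered libraries share more than a number was not tested. A fit of each line alone cannot give the difference or the lines in PBS. The cause of these shifts was not tested.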
